A study of Homo sapiens with 6 samples.

Results

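The genes described here are 10 that mark stem cell character or neural lineage in glioma. They were measured by RNA sequencing in U87, a long-used human glioblastoma line, after flow sorting of the tumour cells from a co-culture. The 10 genes were chosen by name, with earlier results of these data known, among the 54628 gene symbols of the count files, and all 10 were found. The title of the series concerns a shuttle of mitochondria between astrocytes and glioblastoma. The 6 libraries fall into cycling U87 cells that received mitochondria (received, n = 3) and cycling U87 cells that did not (not received, n = 3), and both groups came from the co-culture. The labels name no other treatment, do not say how received mitochondria or cycling were marked, and do not give the species of the astrocytes. U87 is 1 line, and nothing says that the libraries of a group were separate cultures, so the spread behind each p-value is that among these libraries and may be technical. The comparison asks how the level of each gene in cells that received mitochondria differs from that in cells that did not.

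The genes fall into 4 roles. Nestin (NES), vimentin (VIM) and glial fibrillary acidic protein (GFAP) are intermediate filament proteins: nestin marks neural progenitors, vimentin marks immature glia and mesenchymal cells, and GFAP marks astrocytes. SOX2, SOX4, SOX9 and POU3F2 (also called BRN2) are transcription factors of neural stem and progenitor cells, and SOX2 and POU3F2 are among the core factors of glioma stem cells. L1CAM is a cell adhesion protein of growing axons that glioma stem cells can carry, and class III beta tubulin (TUBB3) is a microtubule protein of neurons that gliomas also make. CHI3L1, also called YKL-40, is a secreted chitinase-like glycoprotein and a marker of mesenchymal glioblastoma. In glioma-initiating cells, SOX4 has been described as acting upstream of SOX2.

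The promoters of 4 genes are shown, those of the factor and the filament gene with the largest increase among genes that passed the low-count filter, and of 2 of the genes that fell. Each is the 250 bases before a transcription start in RefSeq (assembly GRCh38.p14), written 5′ to 3′ on the strand of the gene. Capitals mark the matches, on either strand, to the GC box GGGCGG, the CCAAT box CCAAT and the TATA box TATAAA. AP-1 (TGANTCA) and the antioxidant response element core (TGACNNNGC) were also searched on either strand, and no match to them lies in the 4 windows printed. The window of the other TUBB3 start holds 1 match to each of them. These spellings share no overlapping match here.
SOX4 (chr6:21593501-21593750, plus strand): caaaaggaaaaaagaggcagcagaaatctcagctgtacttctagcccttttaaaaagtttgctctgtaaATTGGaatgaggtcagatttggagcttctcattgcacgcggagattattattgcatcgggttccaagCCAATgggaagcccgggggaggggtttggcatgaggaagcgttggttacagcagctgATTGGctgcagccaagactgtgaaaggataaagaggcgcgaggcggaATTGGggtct
NES (chr1:156677408-156677657, minus strand): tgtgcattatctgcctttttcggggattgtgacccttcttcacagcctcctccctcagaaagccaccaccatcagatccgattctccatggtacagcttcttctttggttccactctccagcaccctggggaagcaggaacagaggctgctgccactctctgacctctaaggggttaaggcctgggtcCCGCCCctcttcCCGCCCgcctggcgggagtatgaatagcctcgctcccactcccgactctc
TUBB3 (chr16:89923092-89923341, plus strand): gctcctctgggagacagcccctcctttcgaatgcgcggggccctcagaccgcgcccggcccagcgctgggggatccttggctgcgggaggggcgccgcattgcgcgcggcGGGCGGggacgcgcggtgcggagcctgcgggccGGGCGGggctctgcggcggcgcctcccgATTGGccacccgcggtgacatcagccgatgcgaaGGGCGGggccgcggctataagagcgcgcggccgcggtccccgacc
CHI3L1 (chr1:203186705-203186954, minus strand): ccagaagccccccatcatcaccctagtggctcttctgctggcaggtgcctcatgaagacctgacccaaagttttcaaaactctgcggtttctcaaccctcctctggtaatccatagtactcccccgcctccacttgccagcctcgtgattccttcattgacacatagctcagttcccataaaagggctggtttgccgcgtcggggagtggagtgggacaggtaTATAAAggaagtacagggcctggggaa

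The SOX4 window holds 4 CCAAT matches and no other of these motifs. The NES window holds 2 GC boxes, both on the opposite strand. RefSeq gives 2 starts for TUBB3: the window printed holds 3 GC boxes and 1 CCAAT match, and that of the other start (chr16:89921675-89921924, plus strand) holds no GC box, 1 AP-1 match and 1 antioxidant core match. The CHI3L1 window holds a TATA box 27 bases before the start. Of 35116 promoter windows of this length, 42.6% hold a GC box, 32.0% a CCAAT match, 10.7% a TATA box, 10.9% the antioxidant core and 6.57% an AP-1 match. These matches describe the letters of the windows only. RefSeq's promoter table held an entry for 8 of the 10 genes.

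The total count ran from 17879552 to 21314558 in received libraries and from 18549585 to 46392491 in not-received libraries. Not-received replicate 2 was the deepest and stood apart: chi-square per gene was 18.5 and 16.9 between it and the other libraries of its group, against 3.23 to 5.40 in the other pairs within a group. No pair agreed within sampling noise. Levels are given as CPM, counts over the TMM-scaled library size, and fold changes are received over not received from edgeR's quasi-likelihood test, adjusted over 14100 genes by the Benjamini-Hochberg method with 0.05 as the threshold. Of those genes 1298 were called higher and 1364 lower in received cells (18.9% in all, 9.21% higher and 9.67% lower), or 1683 higher and 1110 lower with scaling by library size alone. The median log2 fold change of all genes tested was -0.0012. A 0 is given as listed and does not show that a gene is off: of 134 protein-coding genes from MOG to RPS18 on chromosome 6, 52 were at 0 in all 6 libraries (38.8%, against 19.8% of 19276 protein-coding genes). In that stretch RPS18, a ribosomal protein gene that every cell uses, had 0 counts in each received library and 0, 2 and 2 in not-received libraries. None of the 10 genes lies in that stretch, but TUBB, POU5F1, AIF1 and MOG do. In bulk libraries, a change in the number of cells that make an RNA and a change in RNA per cell cannot be told apart.

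Received cells had more SOX4, NES, SOX9 and VIM mRNA and less CHI3L1, L1CAM and TUBB3 mRNA. Of the 10 genes 7 passed the low-count filter, and 4 of these were called higher and 3 lower, beside 18.9% of all genes tested. SOX2, GFAP and POU3F2 did not pass: no library held more than 18 counts of any of them. In each of the 7 the received and not-received libraries did not overlap, which was so for 39.0% of all genes tested. The 10 genes and the lists below were chosen with earlier results of these data known. Counts of calls among them, set beside the shares over all genes, are therefore descriptions and no test of enrichment. Without received replicate 1 or 3 only 2 of the 4 stayed called higher, and the 3 lower calls held whichever library was left out. All 7 genes were called in every alternative that kept the 3 received libraries, DESeq2, limma-voom and library size scaling included.

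**Figure D1:**
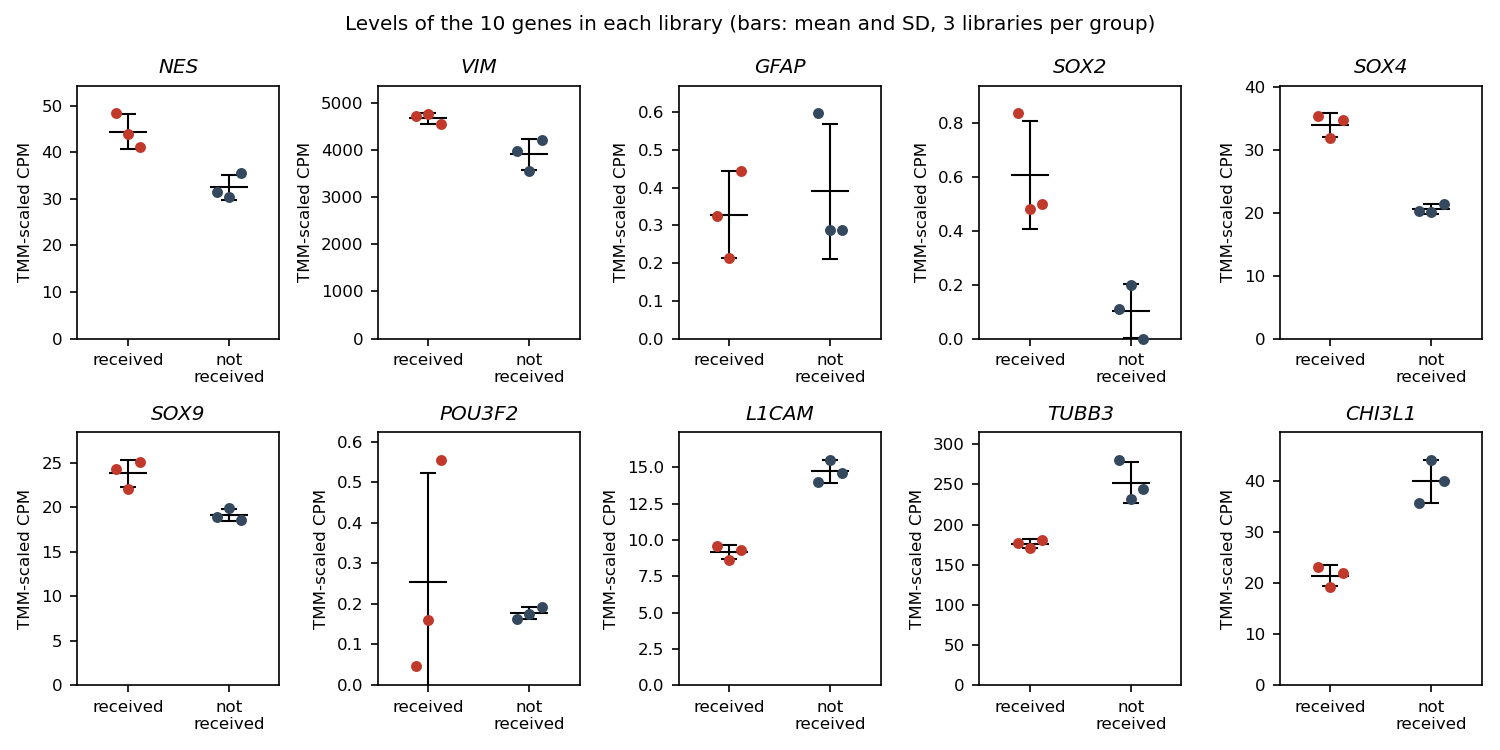
Level of each of the 10 genes in every library, in TMM-scaled CPM on linear axes that start at 0. Points are libraries, with received cells on the left and not-received cells on the right, and the horizontal marks and whiskers are the mean and SD of 3 libraries. The groups do not overlap for NES, VIM, SOX2, SOX4, SOX9, L1CAM, TUBB3 and CHI3L1, and they overlap for GFAP and POU3F2. SOX2, GFAP and POU3F2 did not pass the low-count filter and were under 1 CPM in every library.

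SOX4 had the largest increase of the genes tested in this group. It stood at 35.4, 31.9 and 34.7 CPM in received libraries and at 20.2, 20.2 and 21.5 CPM in not-received libraries. The lowest received library lay well above the highest not-received one. The level of SOX4 was 1.65-fold higher in received cells (log2 fold change 0.72 ± 0.08 SE, edgeR adjusted p = 3.98e-05), and the log2 fold change lay between 0.70 and 0.77 with any 1 library left out. SOX9, a factor of neural stem cells and glia, stood at 24.2, 22.0 and 25.1 CPM in received libraries and at 18.8, 19.9 and 18.6 CPM in not-received libraries. These groups are closer: the lowest received library was 22.0 CPM and the highest not-received library 19.9 CPM. SOX9 rose 1.24-fold (log2 fold change 0.31 ± 0.08 SE, edgeR adjusted p = 0.0198). Its call was lost without received replicate 1 (adjusted p = 0.0792) and without received replicate 3 (adjusted p = 0.0889). Without not-received replicate 2 the log2 fold change was 0.70 for SOX4 and 0.34 for SOX9.

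SOX2 lay near the floor. It had 18, 9 and 9 counts in received libraries and 2, 9 and 0 counts in not-received libraries. The not-received library with 9 counts was the deepest, so on the CPM scale every received library was higher. That made 0.607 ± 0.200 CPM for received and 0.102 ± 0.099 CPM for not received (SD, n = 3 each). The two-sided exact permutation test gave p = 0.1, its lowest possible value with 3 libraries a group. Over all libraries of a group, 36 counts in received and 11 in not-received cells gave a rate ratio of 4.90, with an exact 95% interval of 2.44 to 10.7 that covers counting error only. Of the 11 counts 9 were in not-received replicate 2, and without that library the ratio was 12.4 (3.2 to 107). The library with 0 counts allows up to 0.144 CPM, the level of 3 counts. SOX2 was called only where no low-count filter was used (log2 fold change 2.32 ± 0.69 SE, edgeR adjusted p = 0.00919), a fit printed for the 3 filtered genes after the data were seen. SOX2-OT, a long noncoding RNA gene that spans SOX2, had 0, 1 and 2 counts in received and 0, 1 and 0 in not-received libraries.

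POU3F2 had 1, 3 and 10 counts in received libraries and 3, 8 and 4 in not-received libraries. The received libraries span the not-received ones, from 0.047 to 0.556 CPM against 0.163 to 0.192 CPM. The rate ratio over summed counts was 1.40 (exact 95% interval 0.625 to 3.11). Of the 14 received counts 10 were in received replicate 3, and the ratio was 0.58 (0.140 to 1.82) without it and 2.06 (0.904 to 4.65) without received replicate 1. With all libraries the exact two-sided permutation p was 1. A difference was not detectable at this depth. Of 15 POU genes 4 passed the filter and edgeR called 0 (0 also at an unadjusted p under 0.05, by DESeq2 and by limma-voom). POU2F2, best known as the B cell factor OCT2, was the most abundant at 137 ± 3.91 CPM in received and 126 ± 18.8 CPM in not-received cells, and it was called higher without not-received replicate 2. POU6F1 had a log2 fold change of 0.19 ± 0.14 and POU2F3 of -0.54 ± 0.42 (edgeR adjusted p = 0.365 and 0.388). POU5F1, the pluripotency factor OCT4, had at most 4 counts in any library, but lies in the stretch of chromosome 6 named above.

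Within the SOX family SOX4 took a larger share in every received library than in any not-received one. SOX4 took 29.8%, 31.2% and 30.1% of all SOX counts in received libraries and 20.3%, 19.4% and 22.8% in not-received libraries, a measure that does not depend on the scaling factors. The mean was 30.4% ± 0.755 for received and 20.8% ± 1.76 for not received (SD; exact permutation p = 0.1, two-sided). The SOX9 share was 21.3% ± 0.756 in received and 19.3% ± 0.436 in not-received libraries, with no overlap between groups and the same exact p. Of 19 SOX genes 6 passed the filter, and SOX4 and SOX9 were the 2 called, both higher (0 lower by edgeR, by DESeq2, by limma-voom and at an unadjusted p under 0.05). SOX12, a relative of SOX4 in the SOXC group, stood at 34.7 ± 3.82 CPM in received and 39.1 ± 3.65 CPM in not-received cells and was not called (log2 fold change -0.17 ± 0.09, adjusted p = 0.216). SOX5 had a log2 fold change of 0.56 ± 0.25 (adjusted p = 0.142), SOX13 of -0.24 ± 0.12 and SOX15 of 0.06 ± 0.25 (adjusted p = 0.176 and 0.894). SOX11, the other SOXC gene, had 0 counts in all 6 libraries, as did SOX3, SOX8, SOX14 and SOX17. SOX10, of the oligodendrocyte lineage, had 2 counts in all.

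**Figure D2:**
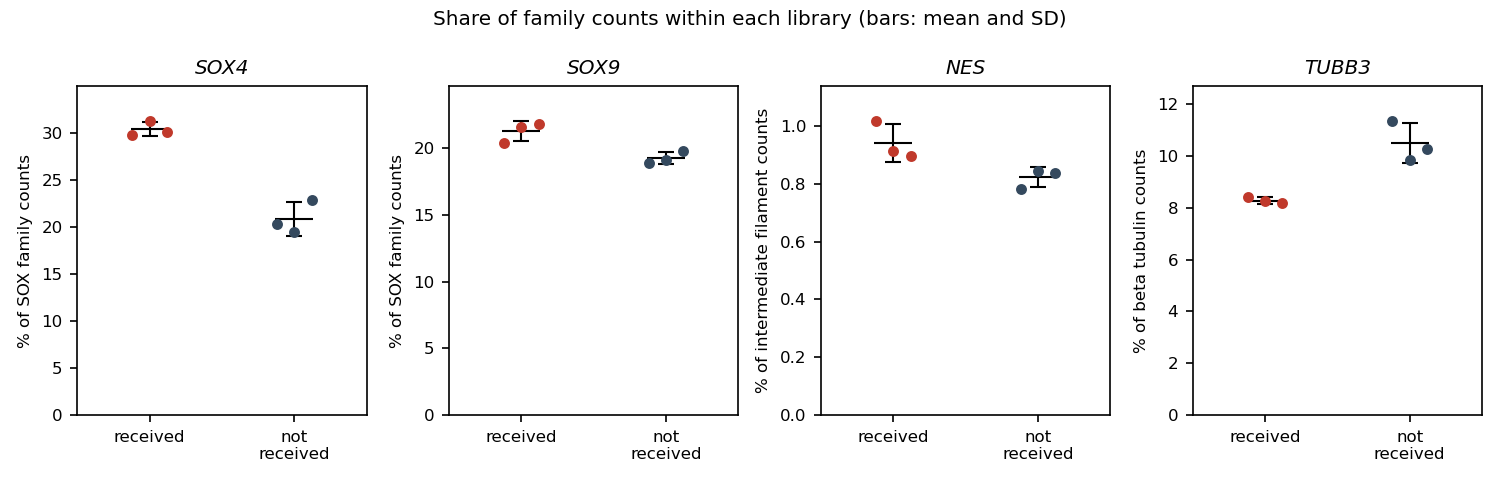
Share of SOX family counts taken by SOX4 and SOX9, of intermediate filament counts taken by NES and of beta tubulin counts taken by TUBB3, in percent, in each library. Points are libraries, received on the left and not received on the right, with the mean and SD of 3 libraries. The groups do not overlap in any of the 4 panels: SOX4 stands at 29.8% to 31.2% in received and 19.4% to 22.8% in not-received libraries, and TUBB3 at 8.17% to 8.42% and 9.86% to 11.3%.

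Nestin and vimentin both rose, with log2 fold changes of 0.46 and 0.26. NES stood at 48.5, 43.9 and 41.1 CPM in received libraries and at 31.5, 30.3 and 35.6 CPM in not-received libraries. All received libraries lay above all not-received libraries. NES was 1.37-fold higher (log2 fold change 0.46 ± 0.09 SE, edgeR adjusted p = 0.00274) and stayed called with any 1 library left out (highest adjusted p = 0.0251). VIM was the most abundant of the 10 genes, at 4722, 4766 and 4552 CPM in received libraries and 3988, 3556 and 4210 CPM in not-received libraries. It was 1.19-fold higher (log2 fold change 0.26 ± 0.07 SE, edgeR adjusted p = 0.0170). The VIM call was lost without received replicate 1, 2 or 3 (adjusted p = 0.0779, 0.0772 and 0.0556), while without not-received replicate 2 the log2 fold change was 0.19 and the call held. For NES it was 0.41 without that library. VIM-AS1, an antisense gene that overlaps the start of VIM, had 65, 39 and 49 counts in received and 28, 58 and 27 in not-received libraries, and whether VIM counts hold antisense reads was not tested.

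The astrocyte filament gene GFAP lay near the floor in both groups. It had 7, 4 and 8 counts in received libraries and 11, 13 and 6 in not-received libraries. The groups overlap, at 0.328 ± 0.115 CPM in received and 0.390 ± 0.179 CPM in not-received cells (exact permutation p = 0.7, two-sided). The rate ratio was 0.949 with an exact 95% interval of 0.505 to 1.74, which covers counting error only, and it lay on either side of 1 (0.772 to 1.18) with 1 library left out. Of 10 intermediate filament genes 4 passed the filter, with NES and VIM called higher. The lower calls were 0 by edgeR, DESeq2 and limma-voom and 1 at an unadjusted p under 0.05, that of desmin (DES, log2 fold change -1.07 ± 0.38, edgeR adjusted p = 0.0682). DES, under 1 CPM on average in both groups, passed the filter through the not-received libraries, where it was higher, and is named after its value was seen. Without not-received replicate 3 the filament gene SYNM passed the filter, through the not-received libraries, and was called lower. It had 6, 6 and 3 counts in received and 10, 43 and 8 in not-received libraries. The neuronal filament gene NEFM stood at 0.954 ± 0.448 and 0.986 ± 0.324 CPM. VIM held 99.0% ± 0.072 of intermediate filament counts in received and 99.1% ± 0.049 in not-received cells, and the NES share was 0.941% ± 0.065 against 0.822% ± 0.034 (exact permutation p = 0.2 and 0.1, two-sided).

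L1CAM fell. It stood at 9.58, 8.64 and 9.34 CPM in received libraries and at 14.01, 15.5 and 14.6 CPM in not-received libraries. The highest received library was far under the lowest not-received library. The log2 fold change was -0.68 ± 0.10 SE (edgeR adjusted p = 6.63e-04), so that the received level was 0.623 of the not-received one. It was -0.64 without not-received replicate 2 and between -0.72 and -0.64 with any 1 library left out. L1CAM-AS1, on the other strand, had 1 count in all, in not-received replicate 2.

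Most of the tested neural adhesion genes fell with L1CAM. Of 11 L1 and neural adhesion genes 6 passed the filter. By edgeR, DESeq2 and limma-voom alike 5 of these, L1CAM included, were called lower and 0 higher (0 higher at an unadjusted p under 0.05). Beside this, 9.67% of all genes tested were called lower and 9.21% higher. The median log2 fold change was -0.61. Without L1CAM, 4 of the other 5 were called lower, with a median of -0.54. NFASC, the L1 family protein neurofascin, stood at 40.6 ± 4.41 CPM in received and 58.9 ± 4.76 CPM in not-received cells (log2 fold change -0.54 ± 0.09, edgeR adjusted p = 0.0011). CD24, a glycoprotein of neural progenitors and many tumours, stood at 45.6, 48.2 and 45.9 CPM in received and 87.2, 71.8 and 83.5 CPM in not-received libraries (log2 fold change -0.79 ± 0.08, adjusted p = 2.22e-05). The neural cell adhesion genes NCAM2 (-0.79 ± 0.20) and NCAM1 (-0.38 ± 0.10) had edgeR adjusted p = 0.0150 and 0.0244. Both calls were lost without any 1 received library, and that of NCAM1 also without not-received replicate 3 (adjusted p up to 0.0624 and 0.113), which left 3 of the 5 genes called without any 1 received library. ALCAM, the most abundant of them, had a log2 fold change of -0.10 ± 0.06 (adjusted p = 0.263). The L1 family members CHL1, at 0 counts, and NRCAM, at up to 4 counts, were at or near the floor.

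TUBB3 fell as well. It stood at 178, 171 and 181 CPM in received libraries and at 281, 232 and 244 CPM in not-received libraries. Received libraries were tightly grouped and all lay under the not-received libraries, of which replicate 1 was the highest. The log2 fold change was -0.52 ± 0.07 SE (edgeR adjusted p = 2.54e-04), a received level of 0.699 times the not-received one, and it was -0.57 without not-received replicate 2 and -0.43 at its weakest with any 1 library left out. MC1R, the gene just before TUBB3 whose transcripts can run on into it, had 148, 112 and 132 counts in received libraries and 172, 371 and 153 in not-received libraries, few beside the 3185 to 10553 counts of TUBB3.

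The other abundant beta tubulins had log2 fold changes nearer to 0 than that of TUBB3. TUBB4B, the most abundant, stood at 1090 ± 38.7 CPM in received and 1166 ± 40.0 CPM in not-received cells (log2 fold change -0.10 ± 0.06, edgeR adjusted p = 0.247), and TUBB2A at 49.9 ± 0.615 and 53.0 ± 4.33 CPM (-0.08 ± 0.07, adjusted p = 0.452). TUBB6 was called lower (-0.19 ± 0.05, edgeR adjusted p = 0.0269), a call lost with scaling by library size alone (adjusted p = 0.0573) and without not-received replicate 1 or 3 or any 1 received library (adjusted p up to 0.145). Of 9 genes 6 passed the filter, with 2 lower and 0 higher by edgeR, DESeq2 and limma-voom (0 higher at an unadjusted p under 0.05). The share of TUBB3 among beta tubulin counts was 8.42%, 8.25% and 8.17% in received libraries and 11.3%, 9.86% and 10.3% in not-received libraries. The mean was 8.28% ± 0.125 for received and 10.5% ± 0.766 for not received (SD; exact permutation p = 0.1, two-sided). TUBB itself had only 50 to 428 counts per library, beside 26 to 893 counts of its pseudogene TUBBP1, and it lies in the stretch of chromosome 6 named above, so its level is uncertain. TUBB2B, another neuronal isotype, had 1 to 10 counts.

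CHI3L1 had the largest decrease of the 7 genes. It stood at 23.1, 19.3 and 22.0 CPM in received libraries and at 35.7, 44.2 and 39.9 CPM in not-received libraries. Not-received replicate 2 was the highest library, and all not-received libraries lay above all received ones. The log2 fold change was -0.90 ± 0.10 SE (edgeR adjusted p = 3.75e-05), a received level of 0.535 times the not-received one. It was -0.82 without not-received replicate 2, and CHI3L1 stayed called with any 1 library left out (highest adjusted p = 0.00104). CHI3L2, its closest relative, stood at 4.42 ± 0.120 CPM in received and 5.30 ± 0.026 CPM in not-received cells and was not called (-0.26 ± 0.15, edgeR adjusted p = 0.251). Of 7 chitinase-like genes 4 passed the filter. CHID1 was called higher (0.24 ± 0.06, adjusted p = 0.0176), a call lost without any 1 received library (adjusted p up to 0.0876). CTBS, the lysosomal chitobiase, had a log2 fold change of 0.29 ± 0.11 (adjusted p = 0.0721), and was called with scaling by library size alone (adjusted p = 0.0437). The chitinase genes CHIT1 and CHIA had 0 counts in all 6 libraries.

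**Figure D3:**
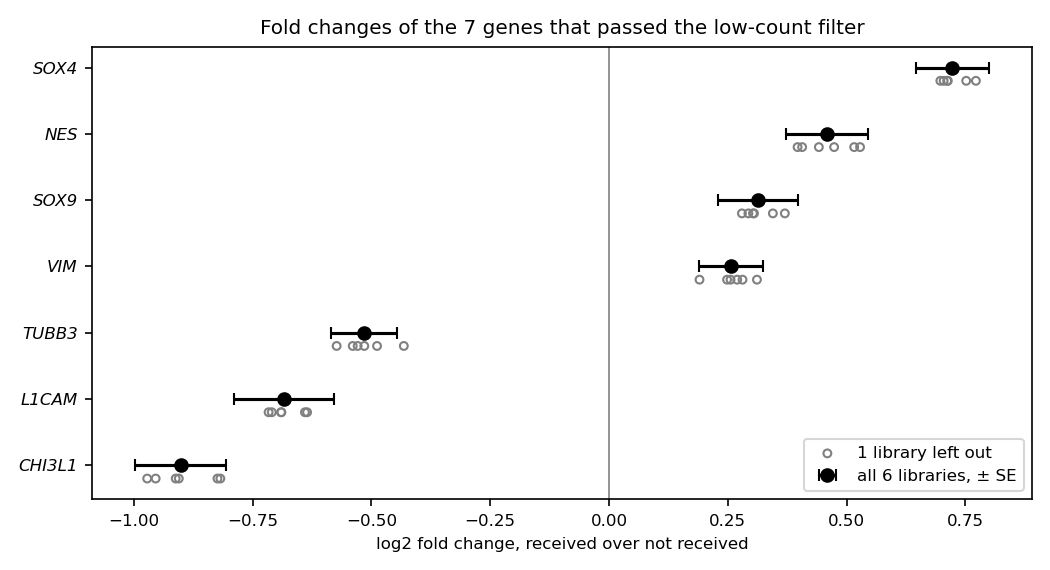
Log2 fold change, received over not received, of the 7 genes that passed the low-count filter. Filled points are the fit of all 6 libraries with 1 SE to each side, and open circles are the fits with 1 library left out. SOX4 (0.72), NES (0.46), SOX9 (0.31) and VIM (0.26) lie above 0 and TUBB3 (-0.52), L1CAM (-0.68) and CHI3L1 (-0.90) below 0 in all of these fits.

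**Figure D4:**
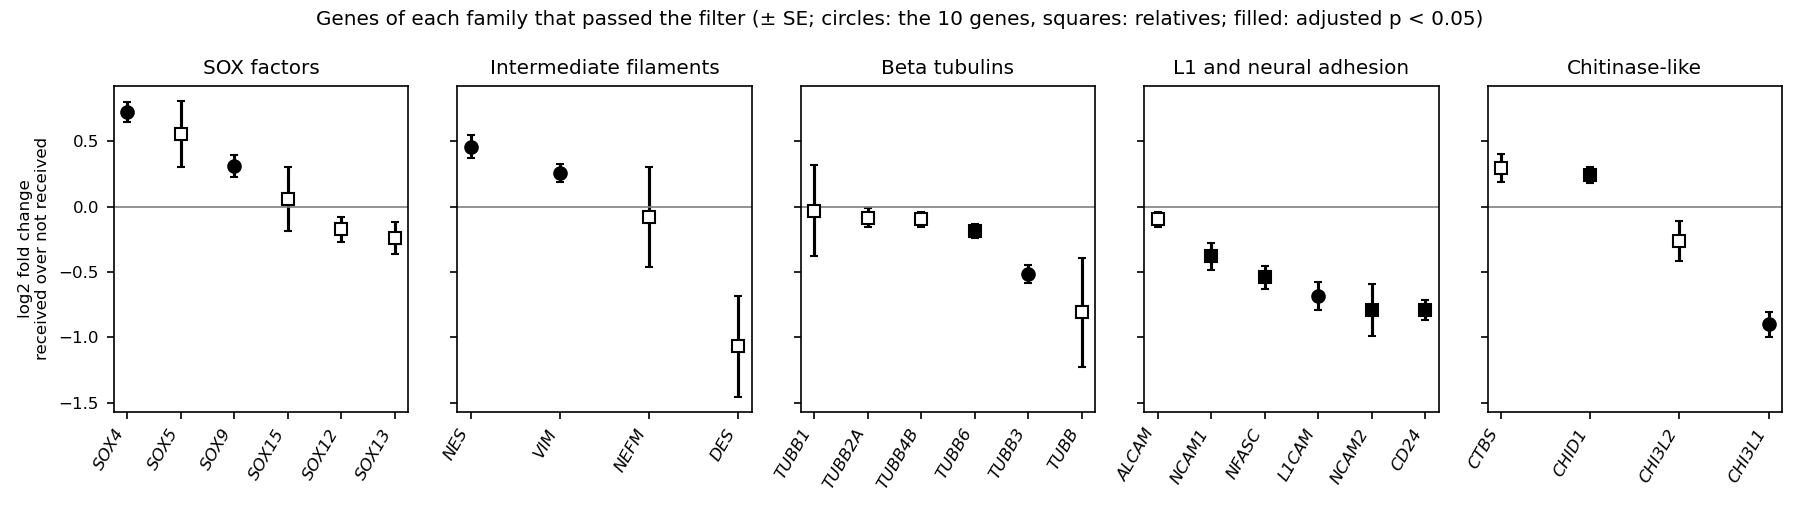
Log2 fold change with 1 SE to each side for the members of 5 families that passed the filter. Circles are genes of the 10 and squares their relatives, and filled symbols have an edgeR adjusted p under 0.05. SOX4 (0.72) and SOX9 (0.31) are the filled symbols among SOX genes, 5 of 6 neural adhesion genes are filled and lie below 0, and CHI3L1 (-0.90) lies apart from its relatives.

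Per kilobase of exon the genes kept a wide order of levels. Lengths are GENCODE v29 exon unions, which need not be the annotation of the deposited counts, and values are CPM per kilobase (mean ± SD, n = 3 each). VIM led with 907 ± 21.9 in received and 760 ± 64.5 in not-received cells, and TUBB3 followed with 39.8 ± 1.14 and 57.0 ± 5.75. In received cells NES came next at 8.01 ± 0.668, and CHI3L1 (6.29 ± 0.582), SOX9 (6.04 ± 0.397) and SOX4 (5.81 ± 0.320) could not be ordered beyond their spread. In not-received cells CHI3L1 stood above these, at 11.7 ± 1.23, before NES (5.85 ± 0.497), SOX9 (4.85 ± 0.171) and SOX4 (3.52 ± 0.126). L1CAM came next, at 1.26 ± 0.068 in received and 2.03 ± 0.106 in not-received cells. SOX2 was at 0.241 ± 0.080 in received and 0.041 ± 0.040 in not-received cells. POU3F2 (0.052 ± 0.055 and 0.036 ± 0.003) and GFAP (0.027 ± 0.010 and 0.032 ± 0.015) overlapped SOX2 in not-received cells.

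Stem cell factors and surface proteins as a wider group went both ways. Of 29 such genes, which include SOX2, POU3F2, NES and L1CAM, 22 passed the filter, and 5 were called higher and 6 lower. Beside this, 9.21% of all genes tested were called higher and 9.67% lower. The median log2 fold change was -0.04. Without NES and L1CAM, 4 of 20 were called higher and 5 lower. The 5 called higher in the whole list were NES, OLIG2, PROM1, ALDH1A3 and ZEB1, the last 3 of them named after their values were seen. When 1 received library was left out 1 or 2 were higher and 3 lower, and 1 was higher without not-received replicate 1 and 3 without not-received replicate 3. ITGA6, an integrin chain used to sort glioma stem cells, stood at 22.0 ± 1.54 CPM in received and 34.7 ± 2.37 CPM in not-received cells (log2 fold change -0.66 ± 0.08, edgeR adjusted p = 1.47e-04). OLIG2, a factor of oligodendrocyte precursors and glioma stem cells, rose (0.71 ± 0.22, edgeR adjusted p = 0.0418), but the call was lost in each fit without 1 library except not-received replicate 3 (adjusted p up to 0.179). PROM1, which encodes the stem cell antigen CD133 and was chosen after its values were seen, had 22, 11 and 10 counts in received and 2, 13 and 7 in not-received libraries (2.83-fold higher, edgeR adjusted p = 0.0367), a call lost whichever library was left out (adjusted p up to 0.196), without a low-count filter and with the replicate block. DESeq2 gave PROM1 no adjusted p. The gene passed the low-count filter only through the received libraries, where it was higher, so its fold change and call are descriptions only. SALL2, which belongs with SOX2 and POU3F2 to the core factors of glioma stem cells, had 4 to 10 counts per library, and NR2E1 had 0.

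Of 30 neuronal lineage genes 16 passed the filter, and 6 were called lower and 0 higher, beside 9.67% lower and 9.21% higher of all genes tested. The counts were the same by edgeR, DESeq2 and limma-voom (0 higher at an unadjusted p under 0.05). Their median log2 fold change was -0.25. With 1 library left out 4 to 6 were called lower, the fewest without received replicate 2 or 3. Without not-received replicate 2 there were 6 lower and 1 higher. DLX2, a homeobox factor of interneuron precursors, stood at 4.05, 3.65 and 3.89 CPM in received libraries and at 14.4, 11.7 and 9.82 CPM in not-received libraries. All received libraries were under 5 CPM and all not-received libraries above 9 CPM, and the log2 fold change of DLX2 was -1.63 ± 0.16 (edgeR adjusted p = 1.62e-05). Its neighbour DLX1 had a log2 fold change of -0.57 ± 0.11 and UCHL1, a neuronal ubiquitin hydrolase, of -0.39 ± 0.07 (adjusted p = 0.00334 and 0.00141). TUBB3 and NCAM1 are on this list too. DCX, ELAVL4, INSM1, MYT1, MYT1L and SOX11 had 0 counts in all 6 libraries.

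Lists of 4 glioblastoma cell states known from single-cell work held genes called in either direction, beside 9.21% higher and 9.67% lower of all genes tested. Of 49 mesenchymal-like genes, which include CHI3L1 and VIM, 42 passed the filter, 7 were called higher and 14 lower (10 and 14 by DESeq2), and the median of log2 fold changes was -0.08. CHI3L1 and VIM went opposite ways. TCIM (1.05 ± 0.11) and GFPT2, of the hexosamine pathway (0.71 ± 0.06), rose with VIM (edgeR adjusted p = 3.04e-05 for TCIM and 3.44e-06 for GFPT2). More genes fell than rose: without CHI3L1 and VIM, 13 of 40 were called lower and 6 higher. NNMT (-0.59 ± 0.12) and NPC2 (-0.49 ± 0.06) had the largest decreases after CHI3L1 (edgeR adjusted p = 0.00511 and 1.55e-04). Both are named after their values were seen. Of 49 neural progenitor-like genes, which include SOX4 and TUBB3, 29 passed, 4 rose and 6 fell (2 without received replicate 1), with a median of -0.04. In that list TAGLN3, a neuronal actin-binding protein (0.73 ± 0.08), and the tetraspanin TSPAN13 (0.66 ± 0.07) rose with SOX4, while CD24 and TUBB3 fell (edgeR adjusted p = 4.38e-05 for TAGLN3 and 5.57e-05 for TSPAN13). Of 39 astrocyte-like genes, which include GFAP, 22 passed, 3 rose and 5 fell (3 without received replicate 1 or 3), with a median of -0.12. TSPAN7 rose (1.11 ± 0.11, adjusted p = 2.34e-05), while CST3, cystatin C (-0.39 ± 0.08), and CLU, clusterin (-0.36 ± 0.06), fell (adjusted p = 0.00471 and 0.00193). NDRG2 fell as well (-0.52 ± 0.15, adjusted p = 0.0316), a call lost in 5 of the 6 fits without 1 library (adjusted p up to 0.124). Of 48 oligodendrocyte precursor-like genes 21 passed, 1 rose and 2 fell by edgeR, a smaller share than the 18.9% of all genes tested, with a median of -0.10. DESeq2 and the replicate block each gave 4 lower. SCD5, a desaturase, had a log2 fold change of -0.53 ± 0.07 (adjusted p = 2.44e-04). The second gene that fell was GPR17, with 6, 7 and 6 counts in received and 38, 91 and 39 in not-received libraries. Its log2 fold change was -2.58 ± 0.31 (edgeR adjusted p = 1.03e-04). It passed the low-count filter only through the not-received libraries, where it was higher, so this value and call are descriptions only. GPR17, the fourth gene that rose among progenitor-like genes (DBN1) and the other astrocyte-like genes that rose (PLTP and S100A16) or fell (ANXA5 and PLPP3) are named after their values were seen. The single gene that rose there, VCAN (versican), was not called without received replicate 2 or 3 or not-received replicate 3 (adjusted p up to 0.0774), and without not-received replicate 2 the list had 2 higher and 6 lower.

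**Figure D5:**
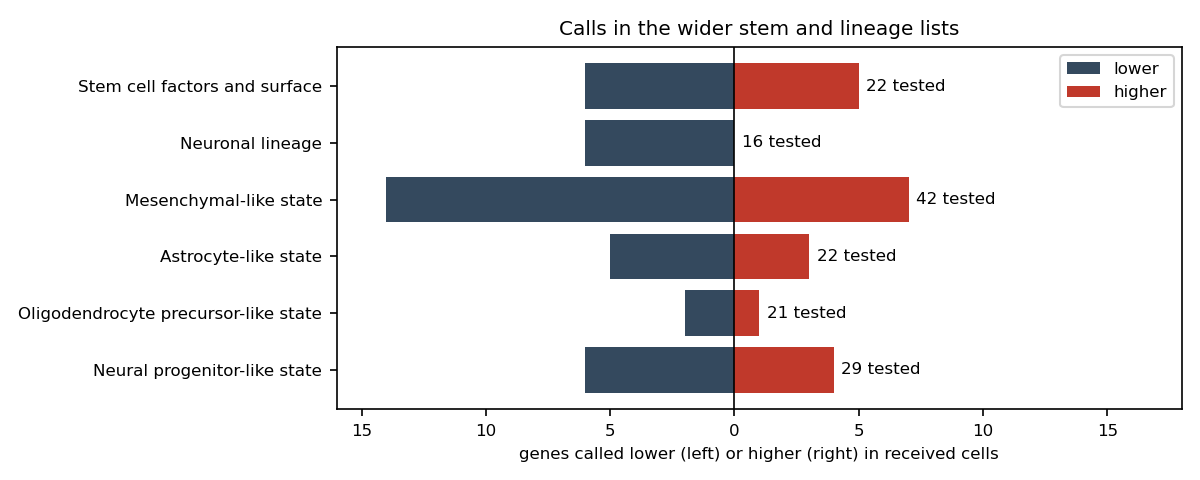
Number of genes called lower (left of 0) or higher (right of 0) in received cells by edgeR in 6 wider lists, with the number of genes that passed the filter beside each bar. The neuronal lineage list has 6 lower and 0 higher, and the other lists have calls on both sides, with 14 lower and 7 higher among mesenchymal-like genes.

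Markers of astrocytes, the other cells that the title names, were checked because GFAP, SOX2, SOX9, NES and VIM are also astrocyte genes. Of 12 astrocyte markers, AQP4, ALDH1L1 and GJB6 had 0 counts in all 6 libraries, and S100B, AGT, FGFR3 and MLC1 had at most 3 in any library. The 3 markers that passed the filter (ALDOC, SLC1A3 and SLC4A4) hold nearly all of the summed level, which was 83.9 to 97.4 CPM in received and 97.9 to 109 CPM in not-received libraries. The calls were 0 by edgeR, DESeq2 and limma-voom, and 1 at an unadjusted p under 0.05. That gene, ALDOC, had a log2 fold change of -0.21 ± 0.08 (adjusted p = 0.0637) and was called lower without not-received replicate 1. The part of these markers in the results above was not tested.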

How the data were processed

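U87 cells were flow sorted, RNA was taken with TRIzol, poly-A RNA was caught on poly-T beads, and an Illumina NovaSeq read pairs of 150 bp, per the labels' protocols. The authors deposited whole-number read counts for each gene symbol, not normalized, 1 file per library. DESeq and R 3.6.1 are the tools named, per the submitters' processing notes. Aligner, counting program, genome build, annotation and strandedness: not given in the sources used here. Reads of overlapping or antisense genes therefore cannot be told apart.

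With edgeR 4.0.16 (R 4.3.3), low genes were dropped by filterByExpr, which left 14100 of the 28833 genes with a count. TMM factors, robust glmQLFit and glmQLFTest followed, with group as the single term. Standard errors (SE) are the size of the log2 fold change over the square root of its F statistic. Shares and filtered genes were compared by an exact two-sided permutation test (SciPy 1.17.1). Exact binomial 95% intervals and the floor of 3 counts cover counting error only. In simulated counts for received over not received (13931 genes), the test found 62 of 100 genes changed 1.5-fold and 75 of 100 changed 2-fold, and 15 of its 152 calls were genes not changed. Alternatives were RLE factors, library size alone, DESeq2 1.42.0, limma-voom (limma 3.58.1), no low-count filter, at least 1 CPM in at least 3 libraries, the replicate number as a block, and each library left out. The members and lists were chosen with earlier results of these data known. The genes named are the 10 genes, their paralogs and, from each list, up to 4 called genes with the largest absolute fold change and an average log2 CPM of at least 1 (the 1 or 2 with the smallest p where none was called), or are given as markers and floor genes by their counts. TMT1B was read under its older symbol METTL7B. Promoter sequences are RefSeq's for GRCh38.p14. Some genes that the naming rule chose are not reported here.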

Additional observations from a re-analysis of the deposited data

How the results depend on the processing

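Of the 7 tested genes, SOX4, NES, L1CAM, TUBB3 and CHI3L1 kept their direction and their call in all 13 alternatives, and VIM and SOX9 lost theirs only where a received library was left out. With 1 library left out, the genes called higher ranged from 604 to 1356 and those called lower from 691 to 1579, and the members called higher from 2 to 4. Without a low-count filter 2084 genes were lower. With scaling by library size alone, beta tubulins had 1 lower and chitinase-like genes 2 higher. Oligodendrocyte precursor-like genes had 4 lower with DESeq2, without a filter and with the replicate block. Leaving out 1 library gave 1 to 2 SOX genes higher, 1 to 2 intermediate filament genes higher and 0 to 1 lower, and 1 to 2 beta tubulins lower. It gave 3 to 5 adhesion genes lower, 0 to 1 chitinase-like genes higher and 0 to 1 POU genes higher. Stem cell genes ran from 1 to 5 higher and 3 to 6 lower, and neuronal genes from 0 to 1 higher and 4 to 6 lower. The lower calls ran from 3 to 6 among astrocyte-like and from 2 to 6 among neural progenitor-like genes. Oligodendrocyte precursor-like genes had 0 to 2 higher and 2 to 6 lower. The cause was not tested. The 7 within-library shares kept their direction in all alternatives.

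The labels do not say whether same-numbered libraries belong together. Same-numbered libraries deviated from their group means with correlations of -0.2, -0.068 and 0.0535, and 0 of 6 libraries correlated best with their own number. No pairing was seen, but with 3 libraries a group this check cannot exclude one. With the replicate block 2636 genes were called instead of 2662, all 7 members among them. Depth limits SOX2, GFAP and POU3F2, whose counts per library ran from 0 to 18.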

Other observations

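Levels of markers of other cell types are given here; their source and their part in the results were not tested. Of 8 neuronal markers 3 passed the filter, and their summed level was 22.4 to 26.6 CPM in received and 28.7 to 32.5 CPM in not-received libraries. SNAP25, a synaptic vesicle fusion protein, had a log2 fold change of -0.49 ± 0.12 (adjusted p = 0.0101), which was not called without received replicate 1 (adjusted p = 0.0686). Of 8 microglia and leukocyte markers AIF1, CX3CR1 and P2RY12 were listed at 0, and the summed level was 25.4 to 28.3 CPM in received and 26.9 to 28.6 CPM in not-received libraries. CSF1R, at 21.2 ± 1.19 CPM in received and 20.5 ± 0.653 CPM in not-received cells, made up most of that level. TMEM119 stood at 5.33 ± 0.245 CPM in received and 6.76 ± 0.985 CPM in not-received cells. Of 7 oligodendrocyte markers MOG and MAG were listed at 0 (AIF1 and MOG lie in a stretch of chromosome 6 where genes that every cell uses are also at or near 0), and nearly all of the summed level of 113 to 124 CPM in received and 116 to 140 CPM in not-received libraries was CNP. Of 5 endothelial markers 2 passed, with 14.1 to 16.6 CPM in received and 13.4 to 17.0 CPM in not-received libraries. Of 5 mural and fibroblast markers 2 were called higher. DCN, the matrix proteoglycan decorin, stood at 6.28 ± 0.607 CPM in received and 3.52 ± 0.470 CPM in not-received cells (log2 fold change 0.85 ± 0.17, edgeR adjusted p = 0.00442). PDGFRB, a platelet-derived growth factor receptor, had a log2 fold change of 0.32 ± 0.09 (adjusted p = 0.0267), a call lost without received replicate 2 or 3 or not-received replicate 1 or 3 (adjusted p up to 0.113). COL1A1, at 1893 ± 59.2 CPM in received and 1896 ± 201 CPM in not-received cells, made up most of that list's level. Without not-received replicate 2, GAD1 among neuronal markers, CNP and the microglial gene TMEM119 were also called lower in received cells.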
